A study of Rattus norvegicus with 6 samples.

Results

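The Wnt genes described here, 10 of 10411 genes that had a probe set of their own, were the ligands Wnt4 and Wnt5a, the receptors Fzd1, Fzd2 and Fzd4, the secreted modulators Sfrp1, Sfrp4 and Dkk3, the signal transducer Ctnnb1 and its nuclear partner Lef1, measured in liver endothelial cells of cirrhotic and control rats. Their members on the array were all probe sets whose only symbol in the platform annotation was 1 of the 10 genes, dim ones included, which gave 16 of 15866 probe sets. The genes were chosen on the difference in signal between the cirrhotic and control arrays, so their values are a description without a test.

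RNA came from 3 preparations labelled cirrhotic and 3 labelled control, each on an Affymetrix rat 230A expression array. The cirrhotic preparations came from adult male Wistar rats put through a protocol that induces cirrhosis, and the control preparations from Wistar rats whose age and sex are not stated. The agent of that protocol, the number of rats behind an array and the target of the antibody on the magnetic beads that captured the cells are not stated in the labels. No label says that arrays of a group came from separate animals, so every error below measures the spread between these arrays.

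Wnt proteins are secreted, lipid-modified ligands that bind Frizzled receptors together with the co-receptors LRP5 or LRP6. In the canonical branch the signal stops the breakdown of β-catenin, the product of Ctnnb1, which enters the nucleus and acts with TCF and LEF factors. Secreted Frizzled-related proteins hold a cysteine-rich domain like that of the receptors and can bind the ligands outside the cell. In the liver, endothelial cells around the central vein are a known source of Wnt ligands, which maintain the gene programme of neighbouring hepatocytes.

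In cells of cirrhotic livers Wnt4, Sfrp1, Dkk3 and Fzd2 had higher signals on every array than on any control array by their brightest probe sets, and Fzd4 and Fzd1 had lower ones. The second probe set of Fzd4 overlapped between the groups, and that of Dkk3 was below background. Ctnnb1 had overlapping groups on each of its 4 probe sets, and so did both probe sets of Sfrp4. Lef1 and Wnt5a were dim in both groups. The set held differences in both directions among its receptors, a high ligand signal and 2 high secreted modulators beside a transducer whose signal overlapped between the groups.

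Wnt4, a ligand needed for kidney and female reproductive tract development in mice, had the largest difference of the 10 genes. On its probe set 1368641_at the signal was 747.1, 810.2 and 603.6 on cirrhotic arrays 1 to 3, against 56.6, 68.0 and 42.2 on control arrays 1 to 3. The lowest cirrhotic array lay far above the highest control array. The mean was 720 ± 106 in cirrhotic and 55.6 ± 12.9 in control (SD, n = 3 each), a ratio of 13.0. On the log2(signal + 16) scale, where 16 is the added pseudocount, the difference of cirrhotic minus control was 3.37 (SE 0.19). It lay between 3.23 and 3.49 when any 1 array was left out. Adding 126, a larger pseudocount that damps dim signals, gave 2.22.

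The control signals of Wnt4 were above all 27 control probe sets for the bacterial genes dap, lys, phe, thr and trpn on their own array. These 27, called bacterial controls here, stayed dim on all 6 arrays. Their highest value, 21.7 to 49.9 by array, therefore served as a mark of background. Wnt5a, a ligand that signals mainly without β-catenin, lay near or below this mark on the control arrays. It read 72.2, 43.8 and 91.8 in cirrhotic and 18.7, 46.9 and 29.4 in control. The groups overlapped through cirrhotic array 2 and control array 2. All 3 cirrhotic arrays and 1 of 3 control arrays were above background. Its difference was 0.84, and 0.30 with the larger pseudocount.

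The promoter windows of Wnt4 and of Fzd4, the members with the largest positive and the largest negative difference, are shown. The sequence next to a transcript start of each gene can be set beside their opposite differences. Both come from RefSeq on the rat build GRCr8 and run from 250 bases before to 50 bases after a transcript start, on the plus strand of chr5:154797200-154797499 for Wnt4 and of chr1:152692257-152692556 for Fzd4. Capitals mark matches to the GC box GGGCGG on either strand, counted also where they overlap.
Wnt4: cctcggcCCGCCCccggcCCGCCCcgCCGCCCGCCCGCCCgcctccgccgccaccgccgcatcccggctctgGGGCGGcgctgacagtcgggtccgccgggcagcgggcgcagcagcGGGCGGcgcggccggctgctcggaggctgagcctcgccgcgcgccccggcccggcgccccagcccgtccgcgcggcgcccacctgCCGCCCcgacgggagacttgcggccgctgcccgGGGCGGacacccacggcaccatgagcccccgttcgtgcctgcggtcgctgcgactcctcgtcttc
Fzd4: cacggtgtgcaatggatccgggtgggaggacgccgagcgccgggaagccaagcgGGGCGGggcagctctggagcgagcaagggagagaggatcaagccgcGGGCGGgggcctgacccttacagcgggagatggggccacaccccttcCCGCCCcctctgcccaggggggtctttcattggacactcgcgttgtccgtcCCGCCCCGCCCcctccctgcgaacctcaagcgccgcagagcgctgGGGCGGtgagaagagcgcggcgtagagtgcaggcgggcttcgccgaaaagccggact

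The Wnt4 window held 9 GC box matches and the Fzd4 window held 6, and 33.1% of the 33469 rat promoter windows of this length held at least 1. The bases G and C made up 83.3% of the Wnt4 window and 70.7% of the Fzd4 window, against a median of 51.7% over all windows. The core sequence of TCF and LEF sites, TCAAAG, was searched on both strands. It was found in 16.1% of all windows and in 0 of the 6 member windows in the table, those of Wnt4, Wnt5a, Fzd1, Fzd4, Ctnnb1 and Lef1, so no such match overlapped a GC box there. No match says only that these letters are not in this window. A transcript start need not be the first base of a gene. The Ctnnb1 window, from 129533887 to 129534186 on chromosome 8, lay inside the gene, which begins at 129517576. The Wnt5a window also lay inside its gene. Most of the Wnt4 window did too, since that gene begins at 154797245. The Lef1 gene begins at 222340541, within its window from 222340463 to 222340762. The transcript start of the Fzd4 window was the start of its gene, 152692507. The Wnt4 and Fzd4 windows therefore cover unlike parts of their genes, and their GC box counts and base shares are not of like stretches.

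**Figure D1:**
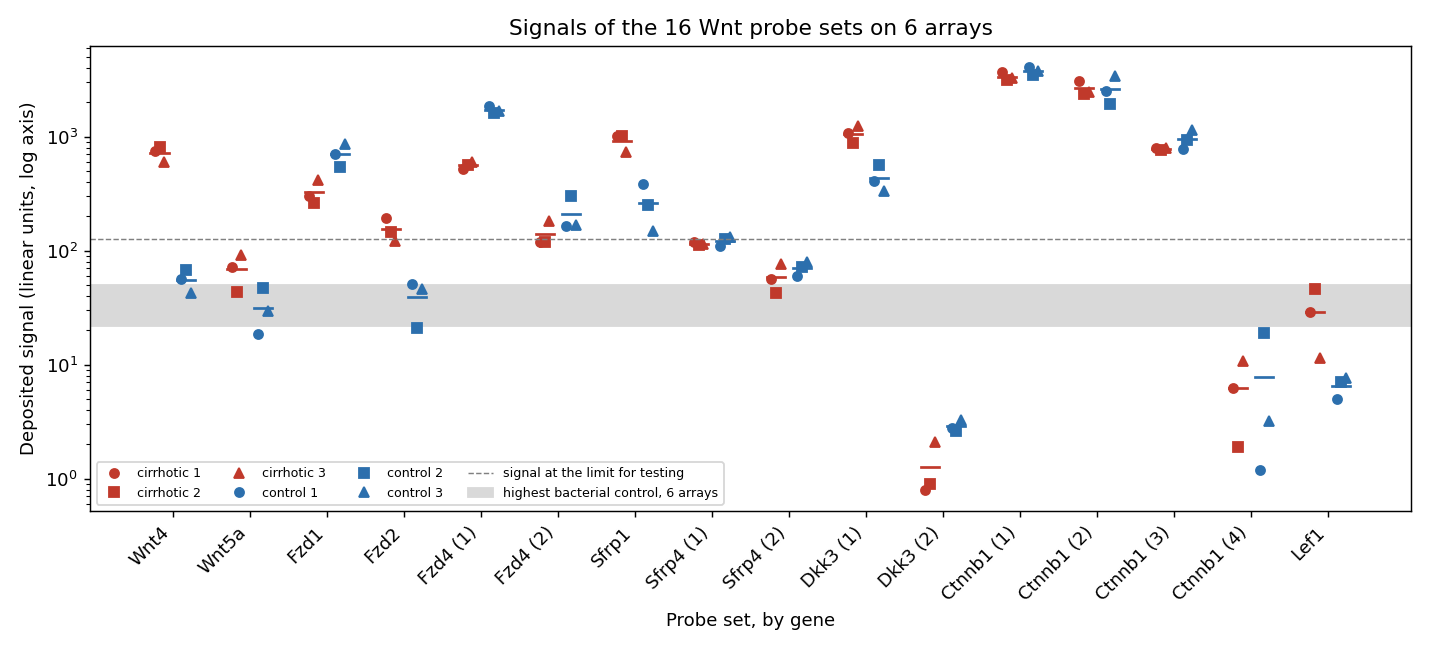
Deposited signal (linear units on a log axis) of the 16 probe sets by gene, with cirrhotic arrays in red at the left of each pair, control arrays in blue and short lines at the group means. The grey band spans the highest bacterial control probe set of the 6 arrays and the dashed line the signal of 127 needed for testing. Wnt4, Fzd2, Sfrp1 and the first Dkk3 probe set are higher on all cirrhotic arrays, and Fzd1 and the first Fzd4 probe set are lower.

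Among the Frizzled receptors the differences ran in opposite directions. Fzd4, a receptor for Wnt ligands and for norrin that is known from the blood vessels of the retina, was lower in cirrhotic on its brighter probe set 1376997_at. The signals were 516.9, 566.4 and 605.0 in cirrhotic and 1843.5, 1609.2 and 1670.1 in control. The groups lay far apart with a narrow spread in each, with means of 563 ± 44.2 in cirrhotic and 1708 ± 122 in control (SD, n = 3 each). The difference was -1.57 (SE 0.13), and between -1.63 and -1.52 with any 1 array left out.

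The other probe set of Fzd4, 1369468_at, did not separate the groups. It read 119.1, 119.1 and 182.7 in cirrhotic and 163.9, 300.1 and 168.9 in control, with cirrhotic array 3 above control arrays 1 and 3. Its difference had the same sign and was smaller, -0.51 (SE 0.27). Without control array 2, the brightest array on this probe set, it was -0.25.

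Fzd1, another Frizzled receptor, was lower in cirrhotic as well. Its signals were 300.2, 261.4 and 415.5 in cirrhotic and 701.6, 536.8 and 866.8 in control. Every control array was above every cirrhotic array, with cirrhotic array 3 nearest to the controls. The means were 326 ± 80.2 in cirrhotic and 702 ± 165 in control (SD, n = 3 each), and the difference was -1.07 (SE 0.22).

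Fzd2, a Frizzled receptor studied as a receptor for Wnt5a, was higher in cirrhotic. It read 194.3, 146.1 and 122.3 in cirrhotic and 51.2, 21.0 and 46.1 in control. The groups did not overlap, and 2 of 3 control arrays were just above their own background mark. Its mean over all arrays fell below the limit set for testing. The difference was 1.64, which depended on the pseudocount and was 0.76 with the larger one and 2.01 with a pseudocount of 1.

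Of the secreted modulators, Sfrp1, a secreted Frizzled-related protein that binds Wnt ligands, read 1016.5, 1006.8 and 728.3 in cirrhotic and 380.5, 250.6 and 147.4 in control. The cirrhotic arrays were all above the control arrays, and the control arrays were spread more widely on the log2 scale (SD 0.27 in cirrhotic and 0.64 in control). The means were 917 ± 164 in cirrhotic and 260 ± 117 in control (SD, n = 3 each). The difference was 1.84 (SE 0.31), 2.14 without control array 1 and 1.51 without control array 3.

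Dkk3, a secreted member of the Dickkopf family that is not established as a blocker of the Wnt co-receptors, read 1065.6, 872.6 and 1229.8 in cirrhotic and 407.1, 567.2 and 335.9 in control on probe set 1370328_at. The groups did not overlap, with control array 2 nearest to the cirrhotic arrays. The means were 1056 ± 179 in cirrhotic and 437 ± 119 in control (SD, n = 3 each), with a difference of 1.26 (SE 0.21). The other Dkk3 probe set, 1377468_at, read between 0.8 and 2.1 in cirrhotic and between 2.6 and 3.3 in control, below background on all 6 arrays, so it was not above background in either group.

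Sfrp4, a relative of Sfrp1, did not follow it. On probe set 1368394_at it read 118.9, 112.2 and 114.5 in cirrhotic and 109.2, 125.6 and 130.5 in control. The groups overlapped and differed by -0.07 on the log2 scale, with a spread within cirrhotic of only 0.04 (SD). The dimmer probe set 1388021_at ranged over 42.5 to 76.6 in cirrhotic and 59.5 to 79.3 in control, with a difference of -0.24. Both probe sets lay above background on all 6 arrays and below the limit for testing.

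Ctnnb1, whose product is the transducer of the canonical branch and also a part of cell junctions, gave high signals on 3 probe sets. The brightest, 1373470_at, read 3688.1, 3122.5 and 3260.1 in cirrhotic and 4070.7, 3476.3 and 3779.9 in control. Its groups overlapped and differed by -0.17 (SE 0.11). On 1373067_at the difference was 0.05 (SE 0.21) and changed sign with the array left out, from -0.14 without control array 2 to 0.26 without control array 3. On 1369733_at it was -0.26 (SE 0.16). The remaining probe set, 1375284_at, read between 1.9 and 10.7 in cirrhotic and between 1.2 and 18.8 in control, below background throughout. β-catenin is controlled mainly at the level of the protein, which these arrays do not measure.

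Lef1, a DNA-binding partner of β-catenin that is abundant in developing lymphocytes, read 28.8, 46.5 and 11.4 in cirrhotic and 5.0, 7.0 and 7.6 in control. The groups did not overlap, but all 3 control arrays and 2 of 3 cirrhotic arrays, all but cirrhotic array 2, were below their background mark. No fold is given for it for that reason. Its difference of 0.92 was 0.22 with the larger pseudocount and 1.80 with a pseudocount of 1.

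**Figure D2:**
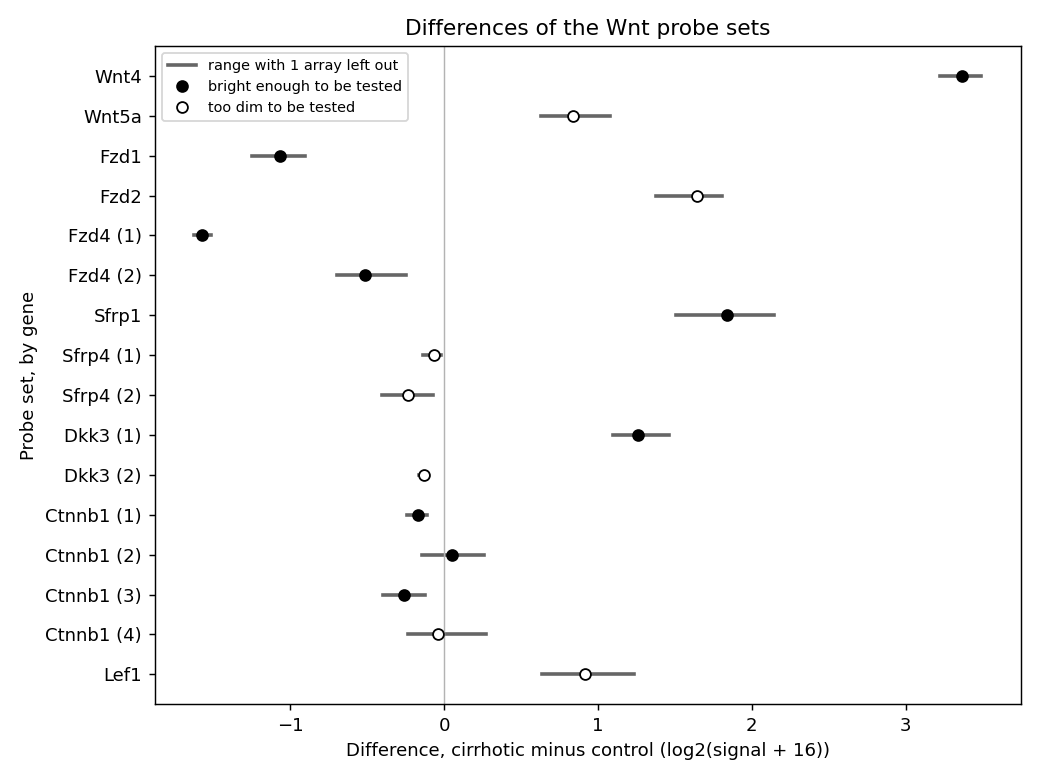
Difference of cirrhotic minus control on the log2(signal + 16) scale for the 16 probe sets (points, filled where bright enough to be tested), with bars for the range when any 1 of the 6 arrays was left out. Wnt4 at 3.37 and Fzd4 at -1.57 are the extremes, and the bars of 2 Ctnnb1 probe sets cross 0.

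Of the 16 member probe sets, 5 were higher and 3 lower in cirrhotic without overlap between the groups, while over all 15866 probe sets 17.4% were higher and 18.6% lower without overlap. The 3 lower ones include the Dkk3 probe set below background. Of the 9 member probe sets bright enough for limma's moderated test, 3 passed as higher (Wnt4, Sfrp1 and Dkk3) and 2 as lower (Fzd4 and Fzd1) at a Benjamini-Hochberg adjusted p under 0.05. Among all 9519 tested probe sets 12.3% passed as higher and 13.2% as lower. These calls are no test of the members and nothing is read from their counts, since the same difference chose the genes. Wnt4 was bright enough only through its cirrhotic arrays, as its control signals of 42.2 to 68.0 lay under the limit of about 127. Without cirrhotic array 1 the counts over all probe sets were 627 higher and 739 lower, and without control array 3 they were 647 higher and 694 lower, against 1167 and 1254 in the full comparison.

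Arrays of a group resembled each other more than those of the other group, with correlations across tested probe sets of 0.912 to 0.967 within and 0.821 to 0.874 between the groups. Their trimmed mean signal lay between 399.2 and 399.6, so each signal is relative to the rest of its array. All 12 measured pan-endothelial and all 10 sinusoidal markers of the labelled cell type were above background on all 6 arrays, and so were all 11 hepatocyte, 5 mesothelial and 6 mast cell markers. Their summed signals were lower in cirrhotic, 20000 to 22240 against 41790 to 42730 in control for the pan-endothelial list and 25120 to 29300 against 53080 to 58210 in control for the sinusoidal list. In such bulk preparations fewer cells of a type and less RNA per cell cannot be told apart.

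The lower signals of Fzd4 and Fzd1 can be set beside these lists. All 12 pan-endothelial genes tested were lower in cirrhotic, with differences from -1.63 to -0.70 and a median of -1.08. All 10 sinusoidal genes were lower too, from -1.64 to -0.59. The -1.57 of Fzd4 on its brighter probe set and the -1.07 of Fzd1 lay inside both ranges. The -0.51 of the dimmer Fzd4 probe set lay outside both. The list of vein endothelial markers was mixed, with a median difference of -0.395 over 7 tested genes. In limma's test 1 of them was higher (Selp, difference 1.94), 2 were lower (Kit and Ephb4) and 4 did not pass. The part of the fall shared by the pan-endothelial and sinusoidal lists in the result for each receptor was not tested.

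The higher signals of Wnt4, Sfrp1, Dkk3 and Fzd2 went with higher markers of other cells. The 19 stellate cell and myofibroblast markers summed to 18500 to 32090 in cirrhotic and 5562 to 6507 in control, with 10 of 14 tested genes higher and 0 lower in limma's test (10 at an unadjusted p under 0.05). The 8 cholangiocyte markers summed to 1482 to 7696 in cirrhotic and 296.6 to 674.7 in control, with 5 of 6 tested genes higher. The 5 mesothelial markers summed to 856.3 to 1652 in cirrhotic and 408.5 to 688.7 in control, with 1 of 3 tested genes higher. The 6 mast cell markers summed to 1260 to 4289 in cirrhotic and 643.1 to 922.6 in control, with 3 of 4 tested genes higher and 1, Kit, lower. The 3 B and plasma cell markers summed to 720 to 1357 in cirrhotic and 406.3 to 609.3 in control, with 2 of 2 tested genes higher. No marker of these lists was at 0 on any array. Above background on all control arrays were 14 of 19 stellate, 4 of 8 cholangiocyte, 5 of 5 mesothelial, 6 of 6 mast cell and 2 of 3 B and plasma cell markers. The part of these cells in the members' differences was not tested.

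Hepatocyte, T and NK cell and macrophage markers were present in both groups as well. Their summed signals were 39090 to 70940 in cirrhotic and 29250 to 41490 in control for 11 hepatocyte genes, 4159 to 7832 in cirrhotic and 3982 to 5407 in control for 12 T and NK cell genes, and 5655 to 12190 in cirrhotic and 4359 to 8863 in control for 9 macrophage genes. All 3 pairs of ranges overlapped. Of the 11 tested hepatocyte genes 5 were higher in cirrhotic and 0 lower, with a median difference of 0.87. Of the 9 tested macrophage genes 2 were higher, Laptm5 and Lyz2, and 1 lower, the Kupffer cell receptor gene Clec4f, with a difference of -3.22. In the T and NK cell list 6 of 11 tested genes were higher and 0 lower. The higher ones included Cd3e and Cd3g, chains of the T cell receptor complex. The 5 others did not pass, each with a negative difference. Their differences were -0.91 for Prf1, without overlap, -0.65 for Klrd1, -0.61 for Cd8a, -0.18 for Nkg7 and -0.04 for Gzmb. Cd3d, also on this list, was too dim to be tested (difference -0.01).

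Differences among the cirrhotic arrays divided some of the members in a way that the choice of genes did not use. Cirrhotic array 3 stood apart in its cell markers, with all 8 cholangiocyte and all 9 macrophage markers at their lowest cirrhotic signal there and all 11 hepatocyte markers at their highest. Against the mean of the other cirrhotic arrays, the median log2 difference was -2.09 for the cholangiocyte, -1.03 for the macrophage, -0.96 for the T and NK cell, -0.77 for the B and plasma cell, -0.65 for the mast cell and -0.49 for the mesothelial list. It was 0.09 for the stellate and myofibroblast, 0.14 for the pan-endothelial and 0.75 for the hepatocyte list.

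Wnt4, Sfrp1 and Fzd2 had their lowest cirrhotic signal on this array, with differences from the mean of the other cirrhotic arrays of -0.36, -0.47 and -0.42. Dkk3, Fzd1 and Fzd4 had their highest there, with 0.35, 0.54 and 0.16 on their brightest probe sets, and so did Wnt5a with 0.57. On their brightest probe sets Ctnnb1 and Sfrp4 fell on neither side, with array 3 between the other cirrhotic arrays and differences of -0.06 and -0.01. The split of 3 against 4 genes rests on 1 array, and Lef1 is left out of it because it was below background on 2 of 3 cirrhotic arrays. Without cirrhotic array 3 the differences between the groups were 3.49 for Wnt4, 1.99 for Sfrp1, 1.15 for Dkk3, -1.25 for Fzd1 and -1.63 for Fzd4.

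**Figure D3:**
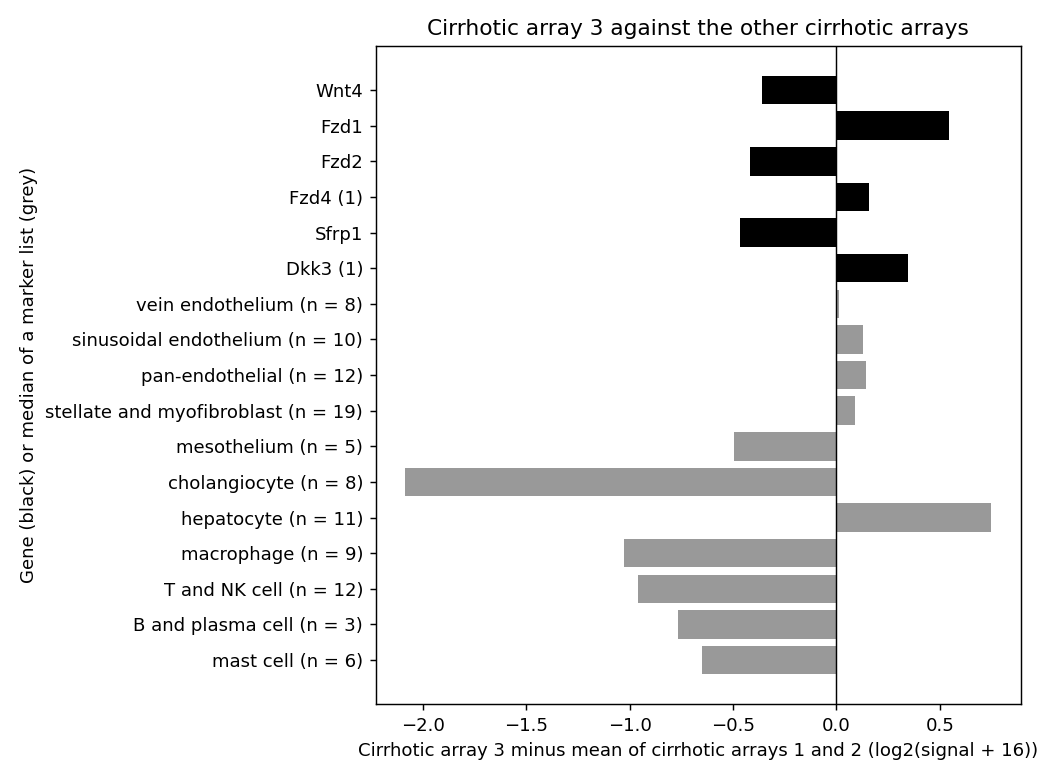
Log2(signal + 16) on cirrhotic array 3 minus the mean of cirrhotic arrays 1 and 2, for the 6 members whose groups do not overlap on their brightest probe set and that were above background on all cirrhotic arrays (black) and as the median of each marker list (grey). Sfrp1, Fzd2 and Wnt4 lie below 0 with the cholangiocyte, macrophage, lymphocyte, mast cell and mesothelial lists, and Fzd1, Dkk3 and Fzd4 lie above 0.

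The genes most like a member over the 6 arrays were sought by the root mean square distance between log2 values centred on each gene's control mean, over 7148 tested genes. Nearest to Wnt4 were Cldn3, a tight junction protein of epithelia (distance 0.19), and Mfap4, a protein of elastic fibres (0.29). Cldn3 read 37.0, 42.7 and 24.0 on the control arrays, below background on each, so there its nearness to Wnt4 rests on background signal. Nearest to Sfrp1 were Lsr, a lipoprotein receptor and junction protein (0.19), and Pdpn, a membrane protein of lymphatic endothelium and mesothelium (0.20). Nearest to Fzd2 were the non-muscle myosin gene Myh10 (0.17) and the laminin chain gene Lama5 (0.20). Nearest to Fzd4 were Bmp6, a ligand by which liver endothelium raises hepatocyte hepcidin (0.09), and the protease gene Bace2 (0.12). The distance is small wherever a gene shares the difference between the groups, which the 6 arrays have in common.

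Beyond the members, 141 further genes of the pathway were listed, of which 90 had a probe set of their own and 70 were bright enough to be tested. In limma's test with Benjamini-Hochberg adjustment 4 were higher and 16 lower in cirrhotic, or 5.71% and 22.9% of those tested, and their median difference was -0.19. Over all 7148 tested genes 12.7% were higher and 12.7% lower, with a median of 0.00. The count of 16 lower was 10 without cirrhotic array 1, 8 without control array 1 and 9 without control array 3. The count of 4 higher was 1 without cirrhotic array 1 and 2 without control array 3. Of the 20 called genes, 8 were called with every 1 of the 6 arrays left out in turn.

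Among the other ligands Wnt2b, Wnt5b and Wnt6 were measured, and only Wnt2b was bright enough to be tested. It read 246.3, 167.1 and 275.0 in cirrhotic and 278.7, 349.6 and 206.2 in control (difference -0.26, SE 0.24, limma adjusted p = 0.459) and did not pass. Wnt5b, a close relative of Wnt5a, read 83.0 and 94.0 on cirrhotic arrays 1 and 2 but 13.1 on cirrhotic array 3, inside the control range of 4.9 to 14.2. Wnt6 ranged over 57.0 to 90.0 in cirrhotic and 81.3 to 102.9 in control. Wnt2 and Wnt9b, the ligands best known from central vein endothelium, and the R-spondin gene Rspo3 were listed too. They had no probe set of their own, so they were not analysed here.

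Of 7 other receptors and receptor partners 1 rose and 2 fell. Ptk7, a co-receptor of planar polarity signalling, read 576.0, 406.0 and 338.7 in cirrhotic and 132.0, 98.7 and 59.8 in control, and rose by 2.04 (SE 0.28, limma adjusted p = 0.00242). Its control mean of 96.8 lay under the limit of about 127, so it was bright enough only through its cirrhotic arrays. Tspan12, a tetraspanin that works with FZD4 in norrin signalling, read 1240.6, 1127.9 and 1440.4 in cirrhotic and 2515.9, 2531.4 and 2560.3 in control, and fell by 1.00 (SE 0.12, limma adjusted p = 0.00158). The groups of both genes lay apart, and both were called with any 1 array left out.

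The co-receptor Lrp6 fell by 0.69 (SE 0.20, limma adjusted p = 0.0367), which did not pass without cirrhotic array 2 or 3 or control array 1 or 2 (adjusted p from 0.0683 to 0.109). Fzd6 had a difference of -0.35 (SE 0.18, adjusted p = 0.179) with no overlap between groups, 132.6 to 201.8 in cirrhotic and 209.0 to 232.4 in control. The R-spondin receptor Lgr4 had a difference of -0.45 (SE 0.22, adjusted p = 0.165). Neither Wls nor Porcn, which carry and modify the ligands before secretion, passed (adjusted p = 0.677 and 0.0692).

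Of the other secreted inhibitors, Frzb, a Frizzled-related protein, rose by 0.69 (SE 0.16, limma adjusted p = 0.0161), with 347.4 to 425.6 in cirrhotic and 194.5 to 266.9 in control. The call ended without cirrhotic array 1, control array 1 or control array 3 (adjusted p = 0.0692, 0.0519 and 0.0621). Igfbp4, an IGF binding protein also described as a Wnt inhibitor, fell by 0.74 (SE 0.18, adjusted p = 0.0228), which did not pass without any 1 of these arrays (adjusted p = 0.0855, 0.0805 and 0.0794). Sfrp2, Wif1, Kremen1, Sost and Sostdc1 were too dim to be tested.

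Inside the cell, 18 tested genes of the β-catenin destruction complex and its partners included none that rose and 3 that fell by small amounts, Apc by 0.54, Csnk1d by 0.41 and Ppp2r5a by 0.48 (limma adjusted p = 0.0311, 0.0454 and 0.0461). Apc encodes the scaffold of the complex, Csnk1d a casein kinase and Ppp2r5a a phosphatase subunit. Apc was not called without cirrhotic array 1 or 3 or control array 1 or 3 (adjusted p from 0.0536 to 0.113). Csnk1d was not called without any 1 of the 6 arrays (0.0586 to 0.148), and Ppp2r5a was called only without control array 3 (0.0533 to 0.144 without the others). Csnk1d also had 3 dimmer tested probe sets with differences from -0.04 to 0.06 that did not pass, and a dimmer probe set of the tankyrase gene Tnks2, not called on its brightest, was lower by limma (-0.49, adjusted p = 0.0242). Axin1, the limiting scaffold, had a difference of 0.06 (SE 0.20, adjusted p = 0.858).

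Among 21 tested nuclear factors 6 fell and 1 rose. Sox17, an endothelial transcription factor that can oppose β-catenin, read 131.4, 97.8 and 89.7 in cirrhotic and 217.6, 565.3 and 343.7 in control, and fell by 1.59 (SE 0.32, limma adjusted p = 0.00975). Its cirrhotic mean of 106.3 lay under the limit for testing, so it was bright enough only through its control arrays. The corepressors Tle1 and Ctbp2 fell by 1.30 (SE 0.21, adjusted p = 0.00435) and 1.03 (SE 0.18, adjusted p = 0.00654), and the β-catenin coactivator Pygo2 by 0.86 (SE 0.17, adjusted p = 0.0102). All 4 were called with any 1 array left out. Crebbp, an acetyltransferase, fell by 0.76 (SE 0.17, adjusted p = 0.0152), but not without control array 1 or 3 (0.0569 and 0.0642). Ruvbl1, a chromatin ATPase, rose by 0.81 (SE 0.18, adjusted p = 0.0146), but not without cirrhotic array 1 (0.0708). Its control mean of 121.8 lay just under the limit for testing. Of the TCF genes, Tcf7l1, which mainly represses, fell by 0.69 (SE 0.17, adjusted p = 0.0223), but not without cirrhotic array 1 or control array 1 or 3 (0.0773, 0.0743 and 0.079). Tcf7l2 had a difference of 0.04 (SE 0.14) and Tcf7 one of -0.33 (SE 0.23), and neither passed. The 3 TCF genes were named after their values were seen.

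In the planar polarity and calcium branches 4 of 18 tested genes fell and 1 rose. Prickle2, a polarity protein, fell by 1.22 (SE 0.20, limma adjusted p = 0.00475), with 388.0 to 404.9 in cirrhotic and 706.3 to 1250.8 in control. The kinase subunit Camk2g fell by 0.87 (SE 0.14, adjusted p = 0.00445). The small GTPase Rac1 fell by 0.45 (SE 0.10, adjusted p = 0.0154), not called without control array 1 or 3 (adjusted p = 0.0526 and 0.0664), and the calcineurin subunit Ppp3ca by 0.55 (SE 0.15, adjusted p = 0.0354), called only without cirrhotic array 2 (0.0694 to 0.122 without the others). Daam2, a formin of the polarity branch, rose by 0.75 (SE 0.18, adjusted p = 0.0186), not called without cirrhotic array 1 or control array 3 (0.0798 and 0.0617). Dimmer probe sets did not pass for Rac1 (difference 0.07, adjusted p = 0.719) or Ppp3ca (-0.45, adjusted p = 0.057). For Jun, not called on its brightest probe set, 2 dimmer ones were lower (-0.77 and -0.77, adjusted p = 0.00422 and 0.00089).

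**Figure D4:**
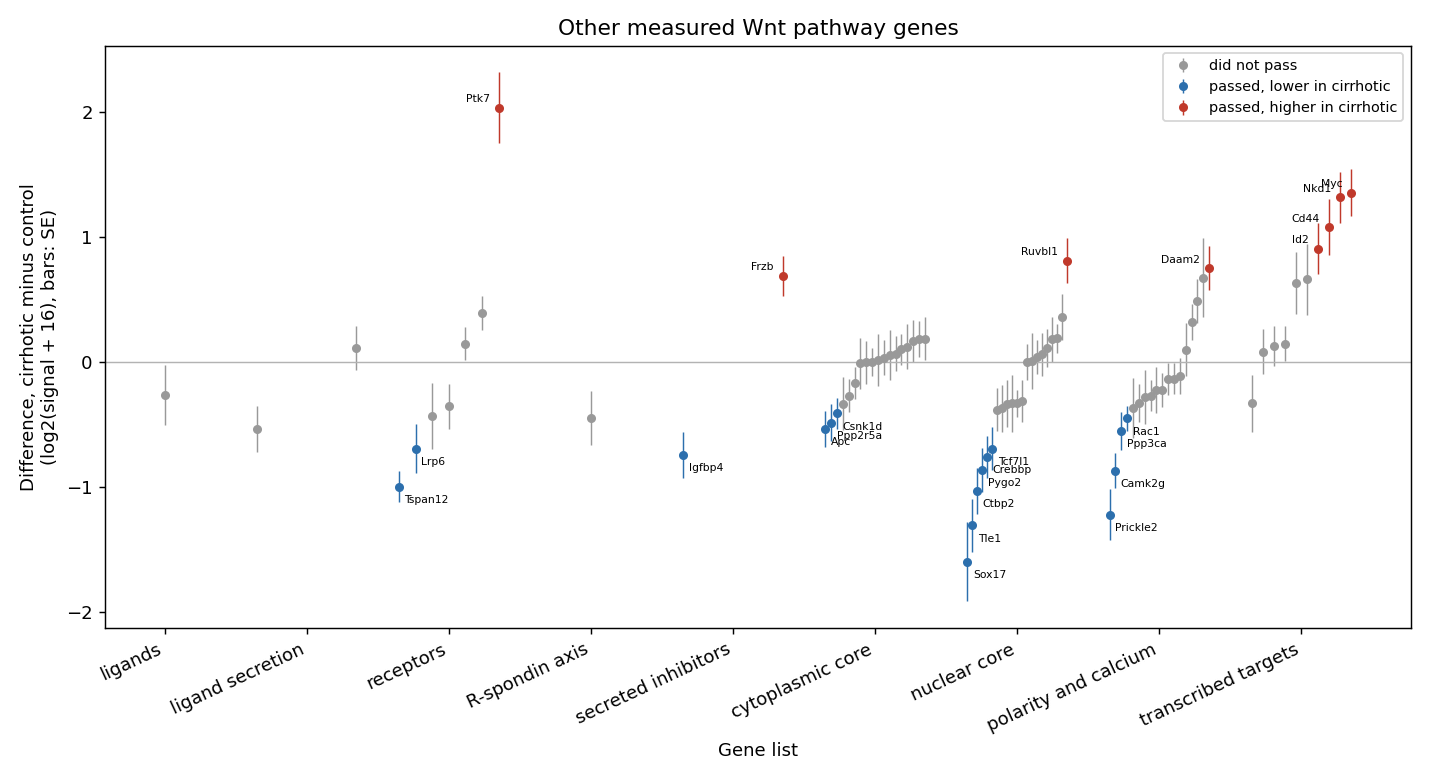
Difference of cirrhotic minus control (log2(signal + 16), bars for the SE) of the tested pathway genes other than the members and of transcribed targets, by list, in red where the gene passed as higher in cirrhotic, in blue where it passed as lower and in grey otherwise. Ptk7 at 2.04 is highest and Sox17 at -1.59 lowest.

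Genes that β-catenin and TCF factors are known to raise in various tissues were measured to follow the output of the pathway. Of 10 tested 4 rose and 0 fell in limma's test, with 6 at an unadjusted p under 0.05 and a median difference of 0.65, beside the 12.7% higher and 12.7% lower over all tested genes. Nkd1, a feedback inhibitor, read 229.4, 276.6 and 223.6 in cirrhotic and 102.4, 99.9 and 64.7 in control, and rose by 1.32 (SE 0.20, adjusted p = 0.00358). Myc rose by 1.36 (SE 0.19, adjusted p = 0.00222), and both were called with any 1 array left out.

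The adhesion receptor Cd44 rose by 1.08 (SE 0.22, limma adjusted p = 0.0112) and the transcription regulator Id2 by 0.91 (SE 0.20, adjusted p = 0.0152). The call of Cd44 ended without cirrhotic array 1 or control array 3 (0.0507 and 0.0503), and that of Id2 without control array 1 (0.0525). A dimmer probe set of Id2 had a difference of -0.28 and did not pass (adjusted p = 0.434). Axin2, a feedback scaffold that is widely used as a readout of the pathway, was too dim to be tested, with 120.7, 99.9 and 113.3 in cirrhotic and 72.9, 76.3 and 27.0 in control. The cell cycle gene Ccnd1 overlapped between the groups (difference 0.13, SE 0.16, adjusted p = 0.589), and so did Tcf7. Myc, Cd44 and Id2 are raised by many other signals as well, and the part of other cell types in these rises was not tested.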

How the data were processed

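Signals of 6 Affymetrix rat 230A arrays, 3 cirrhotic and 3 control, were analysed as deposited. The authors deposited 1 linear intensity per probe set and array; the software behind it is not stated in the labels, and no detection calls were used. Per the labels, cells were freed with collagenase, banded by centrifugation and captured on antibody-coated beads. Groups come from the sample titles, and the control array without a number was called control 1. The number of arrays limits the precision.

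Here values became log2(signal + 16), 16 being the 10th percentile of all values rounded. The 57 control probe sets and the dimmest 40% of the others by mean over all arrays (signal under about 127) were left out, which kept 9519. A linear model with moderated variances and an intensity trend (limma 3.58.1, R 4.3.3) compared the groups, with a 2-sided test, with Benjamini-Hochberg adjustment over the 9519 and a threshold of 0.05. On simulated data the test recovered 55.8% of 2-fold and 92.7% of 4-fold changes among 200 changed of 9519 probe sets, with 5.33% of calls false. The simulated noise was independent between probe sets, and far fewer of them changed than were called on the real arrays. These rates therefore need not hold for the real arrays. For lists, the brightest probe set stood for a gene.

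The members and the gene lists were chosen with earlier results of these data known. Named were all members, the genes nearest to up to 4 of them, and from each pathway, target and hepatocyte zone list up to 5 passing genes in each direction by smallest p, with every other measured Wnt ligand, R-spondin and Frizzled. Symbols come from the platform annotation, with 12783 of 15866 probe sets carrying 1 symbol, and promoters from RefSeq. Alternatives covered normalization, pseudocount, filter, variance model, array weights, a block on array number and each array left out. Array numbers 2 and 3 occur in the titles of both groups, and the deviations of same-numbered arrays correlated at -0.009 and -0.157, so the numbers were not taken to pair the arrays.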

Additional observations from a re-analysis of the deposited data

How the results depend on the processing

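The direction of every member whose groups did not overlap was the same under quantile normalization, median centring, both other pseudocounts and with each array left out, and, for the tested members Wnt4, Sfrp1, Dkk3, Fzd4 and Fzd1, with the block, which was not run for the dim ones. The size of the dim members followed the pseudocount, from 0.22 to 1.80 for Lef1, from 0.76 to 2.01 for Fzd2 and from 0.30 to 1.14 for Wnt5a. Median centring and quantile normalization moved the median of all tested probe sets by -0.08 and -0.02. With any 1 array left out, the calls over all probe sets ranged over 627 to 1256 higher and 694 to 1216 lower, those of the other pathway genes over 1 to 6 higher and 8 to 13 lower, and those of the target and hepatocyte zone genes over 4 to 10 higher and 0 to 1 lower, against 8 higher and 0 lower with all arrays. With the filter at 60%, which tests fewer genes, 1 pathway gene and 5 target and zone genes were higher. Array weights gave 1818 higher and 1954 lower over all probe sets, 8 higher pathway genes and 2 lower target and zone genes, and the cause was not tested. With the array number as a replicate block, which leaves 2 pairs of arrays behind the difference, 499 probe sets were higher and 405 lower, and 1 pathway gene was higher and 5 lower. Signal over background limits Lef1, Wnt5a, Fzd2, Axin2 and Cdh1, and 7 of the 16 member probe sets were too dim to be tested.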

Other observations

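Wnt signals from central vein endothelium are known to maintain pericentral genes in hepatocytes, whose transcripts were present in these preparations. Of 8 tested pericentral genes 0 passed in limma's test in either direction on their brightest probe sets, with 2 at an unadjusted p under 0.05 and a median difference of 0.71. The glutamine synthetase gene Glul, a classic target in hepatocytes that other liver cells also express, read 2284.9, 1580.7 and 2387.7 in cirrhotic and 1860.5, 2870.6 and 2422.2 in control (difference -0.19, SE 0.21, adjusted p = 0.532) on its brightest probe set. Its other probe set read 1843.1, 1490.8 and 1423.8 in cirrhotic and 2366.7, 2475.3 and 2691.0 in control, with no overlap, and passed as lower (difference -0.66, SE 0.13, adjusted p = 0.0101), so the probe sets of Glul disagree. The cytochrome gene Cyp2e1 read 2584.5, 1822.4 and 5921.9 in cirrhotic and 2577.7, 2106.3 and 1001.5 in control (difference 0.78, SE 0.47, adjusted p = 0.258). The stem cell receptor Lgr5 was near background, at 38.8 to 48.2 in cirrhotic and 29.3 to 45.3 in control.

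Of 10 tested periportal genes 4 rose and 0 fell, with 5 at an unadjusted p under 0.05 and a median difference of 0.23, beside 12.7% higher and 12.7% lower over all tested genes. The general hepatocyte list, which shares Cps1, Tat and Alb with it, had 5 of 11 tested genes higher and 0 lower, with a median of 0.87. Cps1, the entry enzyme of the urea cycle, read 928.4, 808.5 and 1691.5 in cirrhotic and 577.4, 382.3 and 212.3 in control, a rise of 1.54 (SE 0.38, limma adjusted p = 0.0227). The call ended without cirrhotic array 1 or control array 2 or 3 (0.058, 0.0606 and 0.0672). Cdh1, an adhesion gene of periportal hepatocytes and of bile ducts, rose by 3.10 (SE 0.56, adjusted p = 0.00677). It read 69.4, 34.1 and 15.7 in control, above background on 1 of 3 control arrays, and was bright enough only through its cirrhotic arrays. Its signals of 518.1, 821.7 and 173.4 on cirrhotic arrays 1 to 3 were lowest on array 3. There all 8 cholangiocyte markers were lowest and all 11 hepatocyte markers highest. Tat, which breaks down tyrosine, rose by 1.54 (SE 0.44, adjusted p = 0.0385), which did not pass without cirrhotic array 2 or 3 or control array 1 or 3 (0.0718 to 0.103). Hsd17b13, a lipid droplet protein, rose by 0.94 (SE 0.29, adjusted p = 0.0497), called only without cirrhotic array 2 (0.0834 to 0.134 without the others). Its control mean of 98.1 lay under the limit for testing. Whether the zones differed was not tested.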
